A study of Drosophila melanogaster with 2 samples.

Results

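The vacuolar ATPase (V-ATPase) subunit genes of Drosophila melanogaster were taken as the protein-coding genes of Ensembl BDGP6 whose symbol starts with Vha, plus ATP6AP2. There were 34 of them among 13945 protein-coding genes. The rule uses gene symbols and no measured value, but it was chosen with earlier results of these data known. The data were Myb-GFP ChIP-seq peaks from whole embryos of 0 to 24 h, both sexes pooled, of a transgenic line that stably expresses Myb with GFP at its C terminus. Chromatin was sheared to 200 to 800 bp and precipitated with anti-GFP antibody in 2 biological replicates of this 1 line, which form the only group of the series. No control library was analysed here, and the number of reads behind the peaks is unknown. In a whole embryo, binding in few cells and weak binding in many cells cannot be told apart.

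The V-ATPase pumps protons into lysosomes, endosomes and secretory vesicles, and across the plasma membrane of some epithelia. Its cytosolic V1 sector, subunits A to H, hydrolyses ATP, and its membrane V0 sector, subunits a, c, c'', d and e, carries the protons. Most subunit families of the fly have several paralogous genes, of which 1 or a few are broadly expressed and others are largely confined to tissues such as the testis. Myb contacts DNA within the Myb-MuvB complex, which is best known for its role at mitotic genes.

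A gene was called bound when a peak of the called set, the peaks that the submitters kept by the irreproducible discovery rate (IDR), had its summit within 500 bp of any annotated transcription start site (TSS) of the gene. By this rule 19 of the 34 V-ATPase genes were bound (55.9%), against 35.6% of all protein-coding genes. The strongest called summit of the bound V-ATPase genes had a median signal of 254 and a range of 97.1 to 1118, against a median of 224 over the 4966 bound protein-coding genes. The signal is the value that the submitters' peak caller gave each peak, and its scale is not stated. Called peaks spanned 93.9 to 7447 with a median of 183. Of the 19 bound members, 13 lay above this median and 11 above the median of all bound genes. Each gene took its strongest summit, and the median of all bound genes, 224, also lay above 183. A called summit at or above 183 was found at 38.2% of the members and at 21.6% of all protein-coding genes. The highest member, VhaPPA1-1, ranked 297 of 6100 called peaks.

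**Figure D1:**
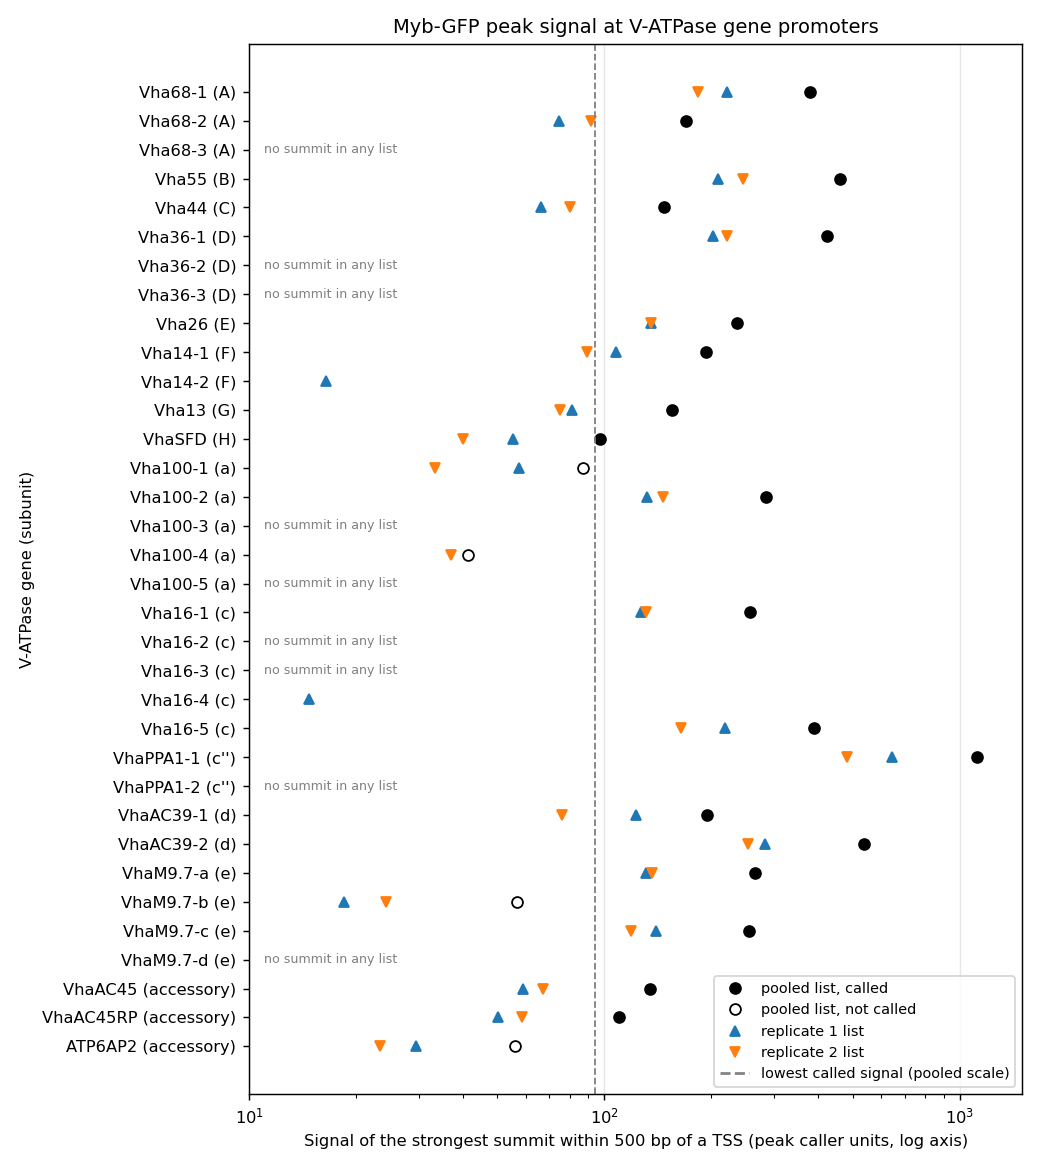
Signal of the strongest summit within 500 bp of a TSS for each of the 34 V-ATPase genes (rows, with the subunit in brackets) on a log axis, in the pooled list (circles, filled where called), replicate 1 (upward triangles) and replicate 2 (downward triangles). The dashed line marks the lowest called signal, 93.9, on the pooled scale; VhaPPA1-1 stood highest with 1118, and 9 genes had no summit in any list.

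The sequences at the summits that carry these results are shown for 4 members. Each is the 101 bases around the strongest called summit, on the gene's strand (minus for all 4) of the RefSeq copy of dm6, and capitals mark any of 6 consensus words searched (described further on). The first, chr3R:14904281-14904381, belongs to VhaPPA1-1, the member with the highest signal. The second, chr3R:23159471-23159571, belongs to VhaAC39-2, the later paralog with the highest signal. The third is chr3R:12627814-12627914 of Vha55, the strongest single-copy subunit gene, and the fourth chr2L:16727757-16727857 of VhaSFD, the weakest bound member.
VhaPPA1-1: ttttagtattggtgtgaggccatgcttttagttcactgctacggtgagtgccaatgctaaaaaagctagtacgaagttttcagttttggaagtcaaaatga
VhaAC39-2: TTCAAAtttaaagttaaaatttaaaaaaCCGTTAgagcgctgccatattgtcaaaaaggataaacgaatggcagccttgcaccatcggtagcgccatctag
Vha55: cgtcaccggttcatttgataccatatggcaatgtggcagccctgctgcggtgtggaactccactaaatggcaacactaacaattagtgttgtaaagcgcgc
VhaSFD: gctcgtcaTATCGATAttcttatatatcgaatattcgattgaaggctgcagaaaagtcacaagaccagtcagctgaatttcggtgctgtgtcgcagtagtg
The VhaAC39-2 window holds a Myb site word, read here on the opposite strand, and a cell cycle homology region (CHR) word at its first bases. The VhaSFD window holds the DRE core word on both strands, overlapping, and the windows of VhaPPA1-1 and Vha55 hold none of the words.

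The share of bound genes was higher among single-copy genes and first copies than among later paralogs. All 5 single-copy subunit genes were bound, Vha55, Vha44, Vha26, Vha13 and VhaSFD. Of the 7 first copies, the genes with the suffix -1, 6 were bound (85.7%). Of the 15 later paralogs, with the suffix -2 to -5, 4 were bound (26.7%), a share near the 35.6% of all genes. With a window of 250 bp, 2 later paralogs (13.3%) and 5 first copies (71.4%) were bound, against 30.9% of all genes. With each summit given to its nearest TSS both counts were the same, against 27.7% of all genes. Of the 15 later paralogs, 12 have no divergent promoter, and of all genes without one 21.7% were bound. Of the 12 first and single-copy genes, 8 have one, and of all genes with one 60.1% were bound. No test was run on these counts, because the genes were chosen with earlier results of these data known and the paralogs of a family share ancestry. In the A and a families background knowledge makes Vha68-2 and Vha100-2, rather than Vha68-1 and Vha100-1, the broadly expressed copies. With these exchanged, all 7 broadly expressed copies and 3 of the 15 others were bound (20%) by the main rule. Of these 7, Vha100-2 was not bound with a 250 bp window, with 1 TSS per gene or with the nearest TSS only. The 250 bp window also lost VhaPPA1-1, and the nearest TSS also lost Vha36-1. Expression was not measured here, so the tissue restriction of a paralog is background only, and the embryo label could not be checked against marker genes.

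**Figure D2:**
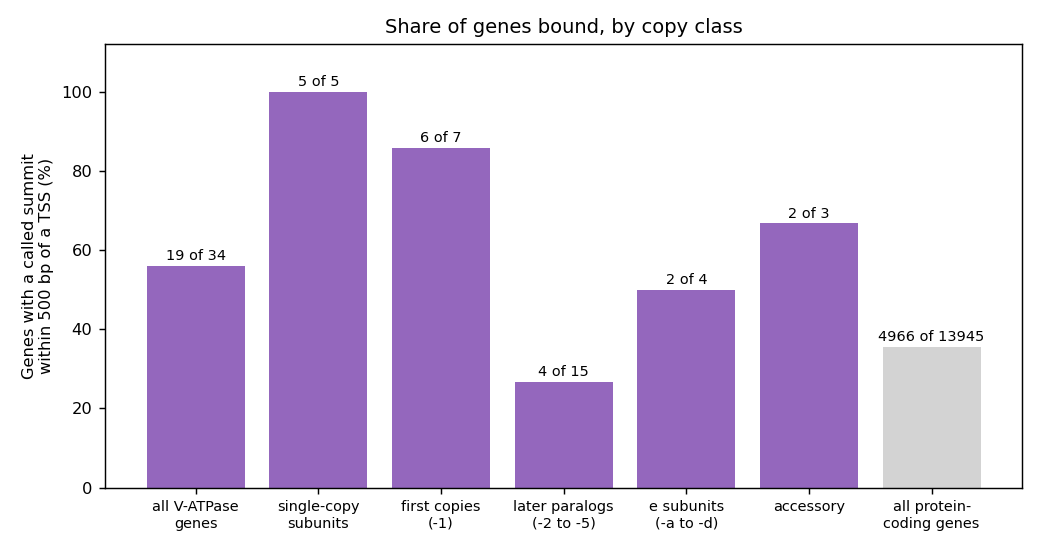
Percentage of genes with a called summit within 500 bp of a TSS (bars, from 0, with counts above) in all V-ATPase genes, each copy class and all protein-coding genes. The single-copy and first-copy bars, at 100% and 85.7%, stand above the 35.6% of all genes, and the later paralogs, at 26.7%, near it.

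In the V1 sector, 9 of 13 genes were bound (69.2%), against 35.6% of all genes. Subunits A and B form the catalytic head, which binds and hydrolyses ATP. Vha55 encodes the B subunit and had the highest V1 signal, 461, with 209 in replicate 1 and 245 in replicate 2. Its summit, at position 12627864 of 3R, lay 35 bp upstream of the gene start, and a second called summit of 114, nearer to the TSS of Snx3, lay 237 bp upstream. The promoter is divergent with that of Snx3, a sorting nexin gene, whose TSS is 167 bp from the stronger summit.

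The A subunit has 3 genes on 2L. Vha68-1 had a signal of 379.7, with 222 and 151 at the matching places in replicates 1 and 2, and a higher replicate 2 summit of 183 lay 181 bp downstream of the TSS. The called summit, at position 13004109, was 2 bp upstream of the TSS. The gene shares this promoter region with mTor, the gene for the growth-regulating kinase TOR, whose TSS lay 371 bp from the summit. Vha68-2 had 169, with 74.4 and 91.4 in the replicates, at a summit 124 bp upstream of its first TSS and with no other protein-coding TSS within 500 bp. Vha68-3 starts 178 bp beyond the end of Vha68-2 and had no summit in any list.

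The central stalk subunits D and F, the peripheral stalk subunits C, E and G, and subunit H each had 1 bound gene. Vha36-1, the first copy of subunit D, had 423, with 203 and 221 in the replicates, from a summit 46 bp upstream of its TSS and 26 bp from that of CG8187. Its paralogs Vha36-2 and Vha36-3 had no summit in any list. Vha26, subunit E, had 236 at a summit 189 bp upstream, which is nearer to the TSS of the splicing factor gene noi, at 115 bp, and a second called summit of 109.7 lay 11 bp downstream of its own TSS. In replicate 1 no summit lay within 100 bp of the stronger one, and the peak of 136 there was 52 bp upstream of Vha26. Replicate 2 had 135 at the matching place.

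Vha13, the G subunit gene, had 155, with 80.9 and 75.0 in the replicates. Vha44, the C subunit gene, had 147, with 66.2 and 80.0. Both summits lay within 100 bp upstream of the TSS, and the Vha44 summit was also 76 bp from a TSS of Hmgs, which encodes the sterol pathway enzyme HMG-CoA synthase. Vha14-1, the first copy of subunit F, had 193, with 108 and 89.2, at a summit 91 bp upstream of its TSS and 370.0 bp from that of CG30091. Its paralog Vha14-2 had only a summit of 16.4 in the replicate 1 list. VhaSFD, the regulatory subunit H, had 97.1 and ranked 5908 of 6100, just inside the called set. Its replicate 1 signal of 55.1 ranked 5136 and its replicate 2 signal of 40.1 ranked 7971.

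In the V0 sector, 8 of 18 genes were bound (44.4%), a share nearer the 35.6% of all genes. The sectors differ in their promoters, with a divergent one at 27.8% of V0 genes and 61.5% of V1 genes. In the relaxed pooled list they were closer, with a summit at 61.1% of V0 and 69.2% of V1 genes, against 59.1% of all genes. A difference between the sectors was not tested. Subunits c and c'' form the proton-carrying ring. VhaPPA1-1, the first copy of c'', had the highest signal of any member, 1118, with 643 in replicate 1 and 481 in replicate 2. The peak ran from 14903963 to 14904554 on 3R with its summit 270 bp upstream of the TSS, and the nearest other protein-coding TSS, that of RpS5b, was 2768 bp away. VhaPPA1-2, separated from it by 2052 bp, had no summit in any list within 500 bp of its TSS. Vha16-1, the first copy of the ring subunit c, had 257, with 127 and 131 in the replicates, and a weaker called summit of 131 lay in its intron.

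Of the other c genes, Vha16-2 and Vha16-3, which lie 985 bp apart, had no summit in any list, and Vha16-4 had only 14.7 in replicate 1. Vha16-5 was bound by the rule with 388, and with 219 and 164 in the replicates. Its summit lay 293 bp upstream of Vha16-5 and 9 bp from the TSS of the divergent gene CG12299. When each summit counted only for its nearest protein-coding TSS, Vha16-5 was not bound.

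The a subunit, which links the sectors and directs the pump to its membrane, was the family whose first copy was not called. Vha100-1, known for its role at neuronal synapses, had 87.1 in the pooled list, rank 6552 and just below the called set. Its signal was 57.6 in replicate 1 and 33.3 in replicate 2. Vha100-2 had 284, with 132 and 146 in the replicates. This summit lay 323 bp upstream of an internal TSS, in an intron, and 256 bp inside the divergent gene Vti1b, which encodes a SNARE of vesicle fusion. It was 1918 bp downstream of the start of Vha100-2. Vha100-4, 517 bp beyond the end of Vha100-2, had 41.4 in the pooled list and 37.0 in replicate 2 and no summit in replicate 1. Vha100-3 and Vha100-5 had no summit in any list.

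Both genes of subunit d, which joins the stalk to the ring, were bound, and the later paralog had the higher signal. VhaAC39-2 had 537, with 283 and 254 in the replicates, the second highest value among the members. VhaAC39-1 had 195, with 123 and 75.8. The VhaAC39-2 summit lay 205 bp upstream of its TSS and 1659 bp from the next protein-coding TSS, that of unk. The values of VhaAC39-2 were above those of VhaAC39-1 in both replicates, without overlap. Of the 4 bound later paralogs, VhaAC39-2 and Vha68-2 had summits with no other protein-coding TSS within 500 bp.

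Among the 4 genes of the small subunit e, VhaM9.7-a had 265 and VhaM9.7-c had 254. The stronger VhaM9.7-a summit was 204 bp upstream of its TSS and 31 bp from the divergent gene CG11586, and a second called summit of 189 lay 6 bp downstream of the VhaM9.7-a TSS. VhaM9.7-a had 136 in replicate 2 at the matching place, and in replicate 1 its peak of 131 was 97 bp upstream of the TSS. VhaM9.7-c had 139 and 119 in the replicates at a summit 29 bp upstream. VhaM9.7-b had 56.6 in the pooled list, below the called set, and VhaM9.7-d had no summit in any list. Of the accessory genes, VhaAC45 had 134, with 59.1 and 67.0 in the replicates, at a summit 168 bp from its TSS and 269 bp from that of Gnptab, and VhaAC45RP had 109.6, with 50.1 and 58.6. ATP6AP2, the homologue of the mammalian (pro)renin receptor, had 56.1 in the pooled list, 29.5 in replicate 1 and 23.4 in replicate 2.

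The 15 genes outside the called set fell into 3 kinds. Vha100-1, Vha100-4, VhaM9.7-b and ATP6AP2 had a summit in the relaxed pooled list, between 41.4 and 87.1. Vha14-2 and Vha16-4 had a summit in 1 replicate only, and the remaining 9 had none in any of the 3 relaxed lists of 30000 peaks. Of all protein-coding genes, 59.1% had a relaxed pooled summit, as did 23 of the 34 members (67.6%), all 7 first copies and 5 of the 15 later paralogs (33.3%). Summits in both replicate lists were found for 22 members (64.7%) and for 52.9% of all genes. Of the 15 later paralogs, 4 had summits in both replicate lists (26.7%), and 8 had no summit in any relaxed list.

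The replicates ordered the bound members in much the same way. Part of this agreement is built in, because the called set was kept by IDR from these same replicates and only summits matched in both lists were ordered. Of the 19 called summits, 17 had a summit within 100 bp in both replicate lists (89.5%), against 95.1% of all called peaks. Within 250 bp all 19 had one. The log2 ratio of replicate 1 to replicate 2 signal ran from -0.30 at Vha68-2 to 0.70 at VhaAC39-1, with a median of 0.11. Over the 5801 called peaks matched in both replicates, the 5th and 95th percentiles were -0.85 and 0.73, so all 17 members lay within them. Of 136 pairs of these members, 122 had the same order in both replicates. The order VhaPPA1-1, VhaAC39-2 held at the top in both. Neighbours in the pooled order could overlap: the replicate values of VhaM9.7-c, 139 and 119, enclosed those of Vha16-1, 127 and 131.

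**Figure D3:**
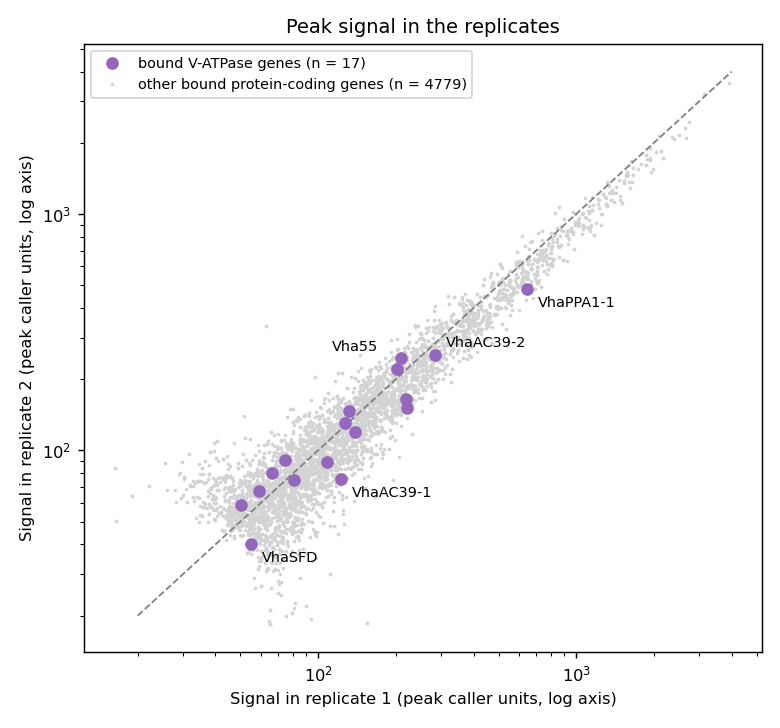
Signal of the matched summit in replicate 1 (x axis) and replicate 2 (y axis), in peak caller units on log axes, for 17 bound V-ATPase genes (large points) and 4779 other bound protein-coding genes (small points); the dashed line marks equal values. VhaPPA1-1 stands highest at 643 and 481, and VhaAC39-1 lies farthest below the line among the members.

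Most summits lay upstream of the member's nearest TSS. Of the 19, 10 lay within 100 bp of it, as did 57.2% of those of all bound genes. The median distance to the nearest TSS of the member was 91 bp, against 80.0 bp over all bound protein-coding genes, and 18 of the 19 summits were upstream, VhaSFD being the exception at 19 bp downstream. Over all bound genes 87.2% were upstream. The summit was outside the member's transcribed region in 17 cases, in the 5' UTR at VhaSFD and in an intron at Vha100-2.

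**Figure D4:**
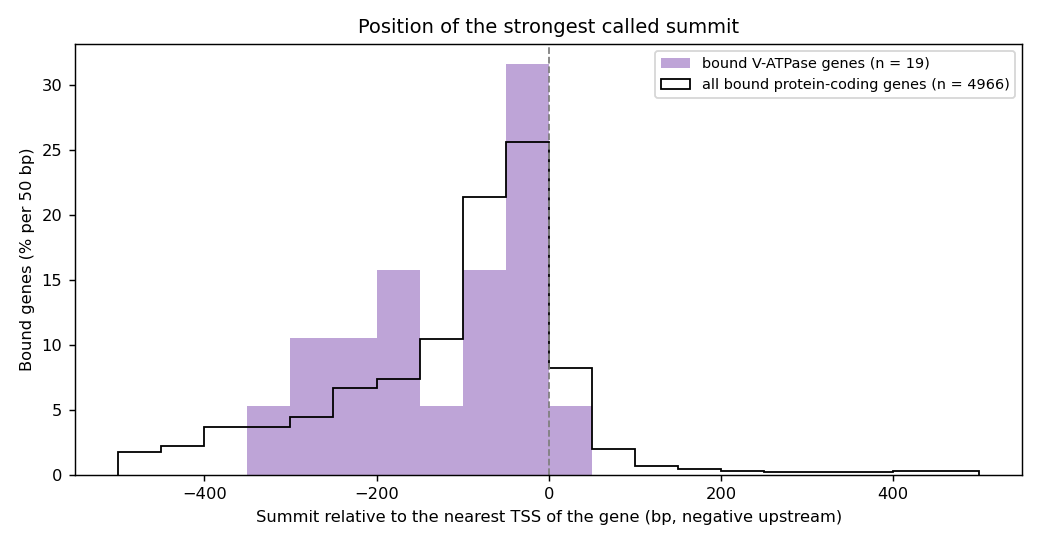
Position of the strongest called summit relative to the gene's nearest TSS in bp, in bins of 50 bp, as a percentage of 19 bound V-ATPase genes (filled) and of 4966 bound protein-coding genes (outline). Of the 19 member summits 18 lie upstream, and the member median is 91 bp from the TSS.

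Many of these promoters are shared with a neighbour. A promoter was called divergent when a protein-coding TSS within 1000 bp points away on the other strand, which held for 14 of the 34 members (41.2%) and for 36.2% of all genes. Of the 14, 11 were bound (78.6%), against 60.1% of all genes with a divergent promoter. Of the other 20, 8 were bound (40%), against 21.7% of all genes without one. In this second set, all 4 first or single-copy genes were bound, namely VhaSFD, Vha16-1, VhaPPA1-1 and VhaAC39-1. Of its 12 later paralogs, 2 were bound, Vha68-2 and VhaAC39-2 (16.7%). Among members with a divergent promoter the classes were closer by the main rule, with 7 of 8 first or single-copy genes (87.5%) and 2 of 3 later paralogs (66.7%) bound. These 2 paralogs, Vha100-2 and Vha16-5, have summits nearer to the neighbour's TSS. With each summit given only to its nearest TSS, 6 of the 8 (75%) and 0 of the 3 were bound. A divergent promoter was found at 66.7% of the first and single-copy genes and at 20% of the later paralogs. For 10 of the 19 bound members the summit lay within 500 bp of another protein-coding TSS (52.6%), against 55.2% of all bound genes. In 5 of them, Vha36-1, Vha26, Vha100-2, Vha16-5 and VhaM9.7-a, the other TSS was nearer. With each summit given only to its nearest TSS, a choice made after seeing these data, 16 members were bound (47.1%), against 27.7% of all genes. Vha36-1, Vha100-2 and Vha16-5 were those lost, which left 5 of 7 first copies and 2 of 15 later paralogs, Vha68-2 and VhaAC39-2. Vha26 and VhaM9.7-a then counted through their weaker summits.

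Of the paralogs that lie close to each other, Vha68-2 and Vha100-2 were bound and their neighbours Vha68-3 and Vha100-4 were not. VhaPPA1-1 was bound and VhaPPA1-2, on the far side of RpS5b, was not. Neither Vha16-2 nor Vha16-3 was bound, and Vha68-1 and Vha68-2, 22162 bp apart, were both bound. The 101 bases around the starts of 2 of the unbound neighbours are shown for comparison with the summit windows of their partners, from chr3R:14900227-14900327 for VhaPPA1-2, chr2L:12978736-12978836 for Vha68-3 and chr2L:12974148-12974248 for the summit of Vha68-2. The strand is minus for VhaPPA1-2 and plus for the Vha68 genes, and capitals mark words as before.
VhaPPA1-2: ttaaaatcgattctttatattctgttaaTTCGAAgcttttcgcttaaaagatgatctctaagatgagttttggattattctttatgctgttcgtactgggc
Vha68-3: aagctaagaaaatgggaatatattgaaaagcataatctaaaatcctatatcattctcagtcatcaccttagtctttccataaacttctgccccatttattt
Vha68-2: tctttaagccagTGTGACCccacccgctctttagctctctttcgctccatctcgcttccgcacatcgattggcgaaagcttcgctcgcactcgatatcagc
The VhaPPA1-2 start holds a CHR word with no called summit near it, the Vha68-3 start holds no word, and the Vha68-2 window holds the Motif 1 core on the opposite strand.

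A set of 6 consensus words was searched on both strands within 250 bp of each TSS; none contains another. The CHR word, TTCGAA or TTTGAA, which in human cells is bound by LIN54, the homologue of Mip120 of Myb-MuvB, was found at 8 of 19 bound members (42.1%) and 7 of 15 unbound members (46.7%), against 72.4% of all bound genes and 66.0% of all protein-coding promoters. Within 50 bp of the summit it occurred at 2 bound members, VhaAC39-2 and VhaAC45 (10.5%), against 23.0% of all called summits. Here and below, all called summits include those away from promoters, whereas member summits lie within 500 bp of a TSS. The Myb site, CAACGG or TAACGG, was found at 8 bound members (42.1%), against 38.5% of all bound genes and 31.0% of all promoters, and within 50 bp of the summit at Vha14-1, VhaAC39-2 and VhaAC45RP (15.8%), against 9.59% of all called summits. Within 100 bp of a TSS the Myb site was less frequent at bound members, 3 of 19 (15.8%), than at all bound genes (21.2%). VhaAC39-2 was the 1 member with both words beside its summit. The E2F site, TTCCCGC or TTGGCGC, was found at 1 bound member, Vha55 (5.26%), and at 2 of 15 unbound members (13.3%). It was found at 18.9% of all bound genes and 15.6% of all promoters.

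Among the words of housekeeping promoter factors, the DRE core, ATCGATA, to which DREF binds, was found at 6 bound members (31.6%), against 37.3% of all bound genes and 22.3% of all promoters. The Motif 1 core, GGTCACA, to which M1BP binds, was found at 4 bound members (21.1%), against 22.5% of all bound genes and 12.8% of all promoters. Within 100 bp of a TSS the shares were lower at bound members than at all bound genes, 15.8% against 30.0% for the DRE core and 5.26% against 17.8% for Motif 1. Within 50 bp of the summit they were higher at members than at all called summits, 21.1% against 12.2% for the DRE core and 10.5% against 6.15% for Motif 1. The sets of summits are unlike, because all called summits include those away from promoters and the member summits lie within 500 bp of a TSS. Summits of all bound genes were not searched apart. With 19 genes, 1 gene more or less moves such a share by 5.26 percentage points.

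The E-box of the CLEAR type, TCACGTG, is known in the fly as a site of Mitf, the factor that drives V-ATPase and lysosomal genes. It was found at 4 of the 19 bound members (21.1%), Vha68-2, Vha55, Vha44 and Vha16-1, and at 0 of the 15 unbound members, against 3.26% of all bound genes and 2.77% of all promoters. At Vha44 the word was centred 3 bp from the called summit, at Vha55 94 bp and at Vha16-1 148 bp away. At Vha68-2 it was 1108 bp from the called summit, 96 bp upstream of an internal TSS. The word (capitals) is shown with 20 bases on either side, on the gene's strand, from chr2L:12975283-12975330 for Vha68-2 (plus) and chr3R:12627747-12627793 for Vha55 (minus).
Vha68-2: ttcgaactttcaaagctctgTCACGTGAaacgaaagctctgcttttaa
Vha55: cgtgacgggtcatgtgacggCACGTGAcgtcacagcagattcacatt
At Vha68-2 the letters form the complete palindrome. A match is a description of the sequence and not of a bound factor.

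**Figure D5:**
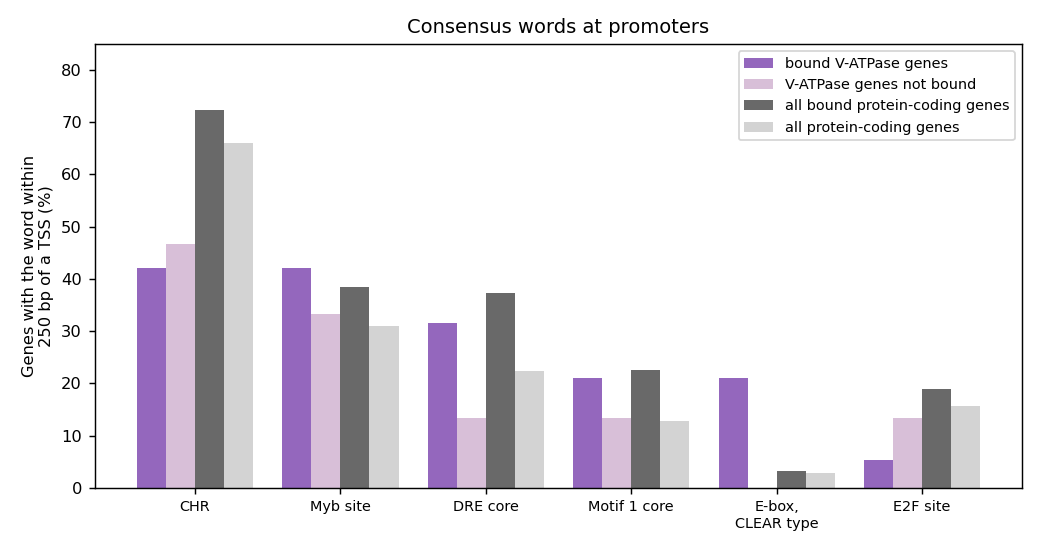
Percentage of genes with each consensus word within 250 bp of any TSS, for bound V-ATPase genes (19), V-ATPase genes not bound (15), all bound protein-coding genes (4966) and all protein-coding genes (13945). The E-box stands at 21.1% in bound members against 2.77% of all promoters, and the CHR word at 42.1% against 66.0%.

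Other genes of the pathway came from a list of 28 names, of which 15 were bound (53.6%), against the same 35.6% of all genes. For 10 of these 15 the summit also lay within 500 bp of another protein-coding TSS, against 55.2% of all bound genes. Listed genes with a divergent promoter were not set apart. Of all genes, 60.1% of those with such a promoter and 21.7% of those without were bound. Of 7 Rag GTPase and Ragulator genes, which recruit TOR to the lysosome, 5 were bound, Lamtor3 (280.3, with 159 and 122 in the replicates), Lamtor4 (174), Lamtor5 (151), RagC-D (107) and Lamtor2 (103), and RagA-B and Lamtor1 were not. Of 17 lysosomal genes, 9 were bound. Lerp, the sorting receptor of lysosomal enzymes, had 368, with 209 and 147 in the replicates. The lysosomal transporter gene spin had 357, with 180.2 and 177, and the protease gene CtsF had 351, with 179.7 and 165. The others were CtsB (189.2), CtsL1 (189.1), ClC-b (179), Ppt1 (154), ClC-c (152) and Npc1a (106). Of 4 genes for assembly and regulation, mtd, which encodes a TLDc-domain protein, had 399, with 174 and 224. Mitf and the genes Rbcn-3A and Rbcn-3B, whose products assemble V1 on V0, were not bound.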

How the data were processed

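Peaks of 2 Myb-GFP ChIP-seq replicates were read from 4 deposited lists on dm6, a relaxed list of 30000 peaks per replicate, one of 30000 for the series, and the called set of 6100. The series list is called pooled here because, per the deposited listings, its dm3 counterpart derives from the alignments of both replicates. Per the file listings deposited with the samples, the relaxed lists were input to the IDR procedure and the called set is its optimal thresholded output; how a control entered the dm6 lists is not stated there. The signal column deposited by the authors holds a peak caller value of unstated scale. The deposited −log10 q was 4.13 for every called peak and was not used. A summit is the interval start plus the offset the authors give. The called set was exactly the 6100 strongest pooled peaks, and 96 entries repeat an interval with another summit. Aligner, caller and versions: not given in the sources used here. Lists on dm3 were not used. The lists hold no read counts, so depth is unknown and intervals are not given.

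TSSs and genes came from Ensembl release 115 on the 6 main arms, and sequence from RefSeq's copy of the same assembly, 1-based. A gene took its strongest summit within 500 bp of any TSS, and a replicate value is the strongest summit within 100 bp of that summit. Paralog classes follow the number in the symbol. The members, lists and words were chosen with earlier results of these data known, so counts stand beside those of all genes and no p-value was computed. All members and their peak-sharing neighbours are named, with every bound pathway gene, the 5 strongest in full. The assignment was checked on planted summits (Python 3.11.15). Alternatives changed the window, the TSSs, the peak set, the replicate and the matching distance.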

Additional observations from a re-analysis of the deposited data

How the results depend on the processing

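The number of bound members lay between 13 and 23 of 34 under the alternatives over all genes. It was 16 with a 250 bp window (47.1%, against 30.9% of all genes). It was 19 (55.9%) with 1000 bp, against 38.9%, and with overlap of the interval, against 37.3%. With 1 TSS per gene it was 18 (52.9%, against 33.7%). It was 13 with the called peaks at or above the set's median (38.2%, against 21.6%) and 23 with the relaxed pooled list (67.6%, against 59.1%). Taking the strongest 6100 peaks of 1 replicate, the count was 18 without replicate 1 (52.9%, against 33.9% of all genes), which lost VhaSFD. It was 20 without replicate 2 (58.8%, against 36.5%), which gained Vha100-1. With a 250 bp window 2 later paralogs were bound, without Vha100-2 and Vha16-5, and 5 first copies, without VhaPPA1-1. With the nearest TSS only, 2 later paralogs were bound. Among genes without a divergent promoter, chosen after the data were seen, 8 members, 3 first copies and 2 later paralogs were bound, out of fewer genes. The median signal of bound members was 215 with a 250 bp window, 190.9 with the nearest TSS only, 245 with 1 TSS per gene, 284 with the stronger peaks, 195 with the relaxed list and 225 without divergent promoters, since each changes which genes or summits enter. It was 129 to 133 in single replicates, whose scale is lower. Of the 34 members, 20 had the same state in all 9 alternatives compared gene by gene, 9 of them bound. Summits matched in both replicates numbered 15 of 19 within 50 bp. With a window of 100 bp the E-box was found at the same number of members, 4, and the other words at fewer. Pathway genes bound numbered 15 of 28 with 250 bp, against 30.9% of all genes, and 17 with 1000 bp, against 38.9%. No paired analysis was possible because the series has 1 group. No background was measured, because no control library was analysed here.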

Other observations

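Called peaks also lay at the far ends of some members, beside other genes. A summit with a signal of 332 lay 820 bp downstream of the Vha14-1 TSS, beyond the gene's 3' end, and was nearest to Gmppa. At VhaAC39-2 a second summit of 230.1 lay 1425 bp downstream, nearest to unk. At Vha36-1 a summit of 127 lay 1189 bp downstream, nearest to eIF2Bgamma, and at Vha68-1 one of 185 lay 3471 bp downstream, nearest to Yip1d1. At Vha16-5 one of 116 lay 950 bp downstream, nearest to Nup107, and at Vha13 one of 95.9 lay 1231 bp downstream, in the 3' UTR and nearest to subdued. None of these summits entered the counts of bound members.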
